A study of Mus musculus with 12 samples.

Results

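Matrix metalloproteinases (MMPs) are zinc-dependent enzymes that cut collagens, elastin and other matrix proteins, and tissue inhibitors of metalloproteinases (TIMPs) block them. Described here are 10 genes of this family, namely Mmp2, Mmp3, Mmp8, Mmp9, Mmp12, Mmp13, Mmp14, Mmp19, Timp1 and Timp2. They were chosen by symbol from a table of 53801 genes, with earlier results of these data known. Each symbol stood on 1 row, and all 10 were among the 14964 genes that passed the filter on low counts.

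RNA was sequenced in bulk from cells labelled as cardiac macrophages of C57BL/6N mice, all of which had undergone ligation of the left anterior descending coronary artery (myocardial infarction). Donors of the cells were wild type (WT) or Bhlhe41dTomato-Cre+/- mice, which carry 1 copy of a dTomato-Cre allele at Bhlhe41 and are called Bhlhe41Cre below. Cells of each genotype were divided by CCR2, the receptor for the monocyte attractant CCL2, into CCR2low and CCR2hi, which gives 4 groups of 3 libraries. Neither the mice's age, nor the time after infarction, nor the number of animals in a library is given in the sources used here, so p values measure only the spread between these libraries. No loxP allele, drug or second treatment is named in the labels, and no group without infarction was analysed here.

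After an infarct, MMPs from infiltrating and resident cells take the collagen network of the heart apart, and a scar is then built by fibroblasts. MMPs are made as inactive proenzymes. MMP14 sits in the cell membrane and, with TIMP2 as a bridge, activates proMMP2, while plasmin made by the urokinase system activates several others. MMP12 is a macrophage elastase and MMP8 is best known as the collagenase stored by neutrophils. MMP2 and MMP14 are typical products of fibroblasts.

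Each library held between 17.7 and 20.83 M counts, where M is 1e+06. Levels are given as CPM (counts per 1e+06 counts of a library after TMM scaling), and as TPM (transcripts per 1e+06 transcripts), which correct for length, where genes are compared with each other. A change is a log2 fold change ± SE from edgeR's quasi-likelihood test, with Benjamini-Hochberg adjustment over the 14964 genes, and a gene was called at an adjusted p under 0.05. That test gives no SE, so the SE was computed as the absolute log2 change divided by the square root of the F statistic. Bhlhe41 was lower in Bhlhe41Cre within CCR2hi (-2.23, adjusted p = 5.14e-05) and within CCR2low (-0.77, adjusted p = 0.0221). Ccr2 was lower in CCR2low than in CCR2hi in WT (-1.06, adjusted p = 0.00825), but differed by -0.01 between the gates of Bhlhe41Cre (adjusted p = 0.983). Against the label, the macrophage character of the gates was unequal. The summed level of 17 macrophage identity markers was 35790.5 to 40470.0 CPM in the CCR2low gate of WT and 32288 to 39644 CPM in that of Bhlhe41Cre. In the CCR2hi gates it was 2464 to 5773 CPM (WT) and 7979 to 10368 CPM (Bhlhe41Cre). The summed level of 16 fibroblast markers went from 5197 to 9308 CPM in CCR2low to 74986 to 83608 CPM in CCR2hi in WT, and from 2466 to 5394 CPM to 36705 to 47180.2 CPM in Bhlhe41Cre. No marker of either list was at 0 in any group, and in every CCR2hi library the fibroblast sum exceeded the macrophage sum. Of 13 endothelial markers 12 were also lower in CCR2low in WT and 13 in Bhlhe41Cre, beside 30.0% and 29.1% of all genes. The female transcript Xist had 1403 to 3699 counts in all 6 Bhlhe41Cre libraries and 0 to 3 counts in the WT libraries, although the labels name male mice for both genotypes. Counts of 4 Y-linked genes were present in all 12 libraries, and lowest in replicate 3 of the Bhlhe41Cre gates, with 105 and 182. Sex makeup and genotype cannot be told apart in these libraries.

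Most of the 10 genes lie apart, but Mmp13, Mmp12, Mmp3 and Mmp8 lie in that order in the MMP cluster of chromosome 9. The sequences just before the starts of 3 of these neighbours are shown because each holds the same short motif while the genes differed in direction between the gates. Each line gives the 100 bases before an annotated start on the + strand of GRCm38.p6 (RefSeq), with the motif TGANTCA in capitals. This pattern covers the known binding sequence of the transcription factor AP-1, and it is its own reverse complement, so 1 search covers both strands.
Mmp13, chr9:7272414-7272513: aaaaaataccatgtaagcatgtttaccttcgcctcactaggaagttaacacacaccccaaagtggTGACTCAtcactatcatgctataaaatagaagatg
Mmp12, chr9:7347274-7347373: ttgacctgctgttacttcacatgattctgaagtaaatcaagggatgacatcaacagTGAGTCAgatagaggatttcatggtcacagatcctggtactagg
Mmp3, chr9:7445722-7445821: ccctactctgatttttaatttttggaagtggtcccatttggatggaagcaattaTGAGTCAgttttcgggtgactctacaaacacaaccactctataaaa
The motif begins 35 bases before the start in Mmp13, 44 in Mmp12 and 46 in Mmp3. For Mmp12 this is the later of 2 annotated starts, and the window of the earlier one holds no match. RefSeq windows of 250 bases before to 50 bases after a start were matched for 7 of the 10 genes. Of their 8 windows, 3 (37.5%) held the motif, as did 5 of 17 windows (29.4%) of the rest of the family and 2565 of 32851 windows (7.81%) of all genes. The windows of Mmp8, Mmp14, Timp1 and Timp2 held none. A match describes these letters only.

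In WT, 8 of the 10 genes differed between the gates. Mmp8, Mmp12, Mmp13 and Mmp19 were higher in CCR2low, while Mmp2, Mmp3, Mmp14 and Timp1 were lower, and Mmp9 and Timp2 were not called. The same 8 genes were called in the same direction in Bhlhe41Cre, where Timp2 was also higher. These directions are on TMM-scaled counts, and some of them turned when libraries were scaled to macrophage or fibroblast markers, as given with the genes concerned. Of all genes tested, 59.8% were called between the WT gates (29.8% higher, 30.0% lower) and 54.1% between the Bhlhe41Cre gates (24.9% higher, 29.1% lower), so the members' counts stand against a high background. The median change of the members was 0.05 in WT and -0.03 in Bhlhe41Cre, against 0.01 and -0.01 over all genes tested. In bulk RNA, fewer cells of a type and less RNA per cell cannot be told apart. Between genotypes, Mmp8, Mmp12, Mmp13 and Mmp19 were higher in Bhlhe41Cre in both gates and Mmp2 and Timp2 were lower in both. Mmp3 and Mmp9 were higher in Bhlhe41Cre within CCR2hi. That makes 6 of 10 called within CCR2low, where 43.0% of all genes were called (16.4% higher and 26.7% lower), and 8 of 10 within CCR2hi, where 32.1% were (16.2% higher and 15.9% lower). The members' median genotype change was 0.38 within CCR2low and 1.19 within CCR2hi, against -0.18 and -0.03 over all genes. Because the members were chosen with earlier results of these data known, their counts and medians beside those of all genes are descriptions only. The genotype comparisons and the gate comparisons share libraries, so their values are given side by side only.

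**Figure D1:**
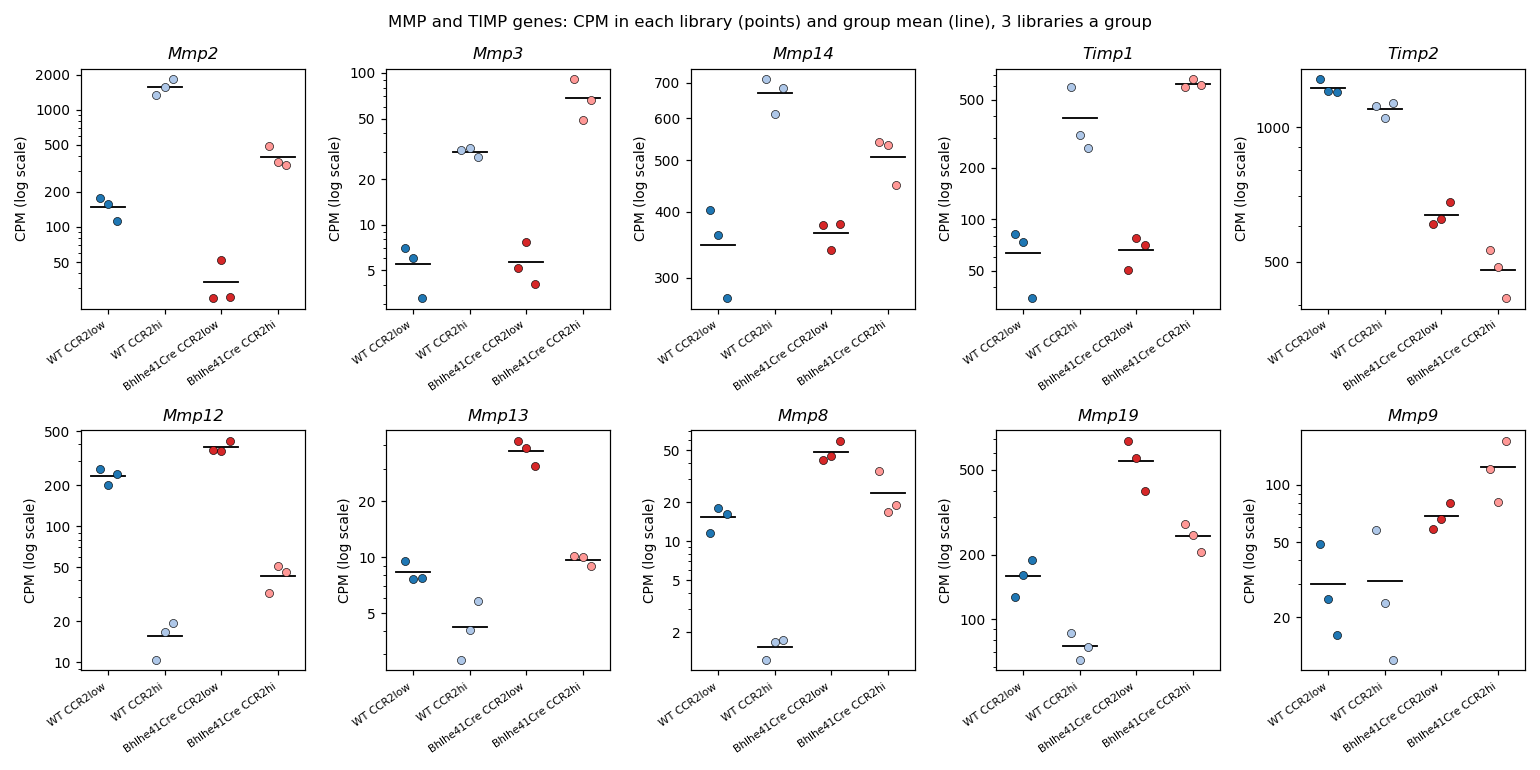
CPM (log scale) of the 10 genes in each of the 12 libraries, with points for libraries and a line for the mean of each group of 3. Mmp2 runs from 24.8 CPM in Bhlhe41Cre CCR2low to 1815 CPM in WT CCR2hi, and Mmp12 is higher in every CCR2low library than in any CCR2hi library.

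Of the collagenases, Mmp13 (9:7272514-7283331), which cuts fibrillar collagen, was at 9.53, 7.64 and 7.75 CPM in WT CCR2low and at 2.81, 4.04 and 5.81 CPM in WT CCR2hi. In Bhlhe41Cre its levels were 42.0, 38.9 and 31.0 CPM in CCR2low and 10.1, 9.97 and 8.97 CPM in CCR2hi. All 3 Bhlhe41Cre CCR2low libraries stood above every other library, and no pair of groups compared overlapped. Mmp13 was higher in CCR2low than in CCR2hi by 0.98 ± 0.226 in WT (adjusted p = 0.00212) and by 1.94 ± 0.214 in Bhlhe41Cre (adjusted p = 5.29e-06). On log2(TPM + 1) values the WT call was lost (0.51, adjusted p = 0.0538). Between genotypes it was 4.49-fold higher in Bhlhe41Cre within CCR2low (2.17 ± 0.217, adjusted p = 2.91e-05) and 2.30-fold higher within CCR2hi (1.2 ± 0.225, adjusted p = 0.00147). The gate difference exceeded that of WT by 0.97 ± 0.308, which was not called (adjusted p = 0.0560). It was called with DESeq2 (1.06, adjusted p = 0.0123), with DESeq2 size factors (1.06, adjusted p = 0.044) and with no filter on low counts (1.17, adjusted p = 0.00856). It was also called when WT CCR2hi replicate 1 (1.40, adjusted p = 0.00804), Bhlhe41Cre CCR2low replicate 3 (1.27, adjusted p = 0.0152) or Bhlhe41Cre CCR2hi replicate 1 (1.22, adjusted p = 0.0451) was left out. Scaled to the macrophage identity markers it was 2.12 (adjusted p = 0.00698), where 38.8% of all genes had a positive interaction.

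Mmp8 (9:7558456-7568485), the neutrophil collagenase, was the only member whose gate difference was called as different between genotypes. Its levels were 11.6, 17.9 and 16.2 CPM in WT CCR2low and 1.23, 1.68 and 1.73 CPM in WT CCR2hi. In Bhlhe41Cre they were 42.2, 45.1 and 58.5 CPM in CCR2low and 34.9, 16.8 and 19.1 CPM in CCR2hi. The 3 WT CCR2hi libraries were the lowest of all 12, and the Bhlhe41Cre CCR2low libraries the highest. CCR2low exceeded CCR2hi by 3.29 ± 0.311 in WT (adjusted p = 1.07e-06) and by 1.04 ± 0.255 in Bhlhe41Cre (adjusted p = 0.00349). The latter became 0.76 (adjusted p = 0.058) without replicate 3 of both Bhlhe41Cre gates. Within CCR2hi Mmp8 was 15.2-fold higher in Bhlhe41Cre (3.93 ± 0.313, adjusted p = 2.78e-06), and within CCR2low it was 3.19-fold higher (1.68 ± 0.261, adjusted p = 0.00034). The interaction, which is the gate difference in Bhlhe41Cre minus that in WT, was -2.25 ± 0.399 (adjusted p = 0.00467). An interaction was called for 1 of the 10 members and for 12.6% of all genes tested (4.74% positive and 7.85% negative). That balance was not stable: of the called genes 710 were positive and 1174 negative, against 1738 and 1063 without Bhlhe41Cre CCR2low replicate 3, and 1150 and 691 with no filter on low counts. Positive calls also exceeded negative ones without WT CCR2hi replicate 1 (887 and 640) and without Bhlhe41Cre CCR2hi replicate 1 (877 and 515), 2 (796 and 533) or 3 (518 and 409).

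Markers of neutrophils, cells that store the MMP8 and MMP9 proteins, moved with some of these groups. The summed level of 15 neutrophil markers was 242 to 331 CPM in WT CCR2low, 66.6 to 114 CPM in WT CCR2hi and 308 to 357 CPM in Bhlhe41Cre CCR2low. In Bhlhe41Cre CCR2hi it was 905 to 1330 CPM. None of the markers was at 0 in any group. Within CCR2hi, 11 of the 14 markers tested were higher in Bhlhe41Cre and 0 were lower (16.2% and 15.9% of all genes). Within CCR2low 1 was higher and 0 were lower (16.4% and 26.7% of all genes). Mmp8 was thus lower in Bhlhe41Cre CCR2hi, where the marker sum was highest, than in Bhlhe41Cre CCR2low. Within CCR2low, where the sums of the genotypes overlapped, Csf3r and Trem1 held much of the sum in WT, at 101.2 to 113.5 and 90.0 to 118.3 CPM, against 77.5 to 104.8 and 72.7 to 103.3 CPM in Bhlhe41Cre. The median change of the 14 markers tested was -0.15 within CCR2low, against -0.18 over all genes, and 13 were not called. The markers S100a8, S100a9 and Retnlg, singled out after their values were seen, did not overlap there, but none of these was called. S100a8 was at 10.1 to 34.9 CPM in WT and 54.7 to 61.8 CPM in Bhlhe41Cre (1.14, adjusted p = 0.0889), and S100a9 at 10.5 to 38.5 and 46.6 to 64.5 CPM (1.09, adjusted p = 0.0879). Retnlg, another neutrophil transcript, was at 0.373 to 5.15 and 5.76 to 8.51 CPM (1.48, adjusted p = 0.0781). As a percentage of the mean CPM of the 15 markers, Mmp8 stood at 16.2, 33.4 and 39.0% in WT CCR2hi. In Bhlhe41Cre CCR2hi it stood at 39.3, 27.8 and 25.5%, so the genotypes overlapped in this measure. Within CCR2low it stood at 71.5, 82.8 and 73.4% in WT and at 205.9, 217.3 and 245.7% in Bhlhe41Cre, without overlap. The part of neutrophil transcripts in the genotype difference of Mmp8 was not tested in either gate.

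**Figure D2:**
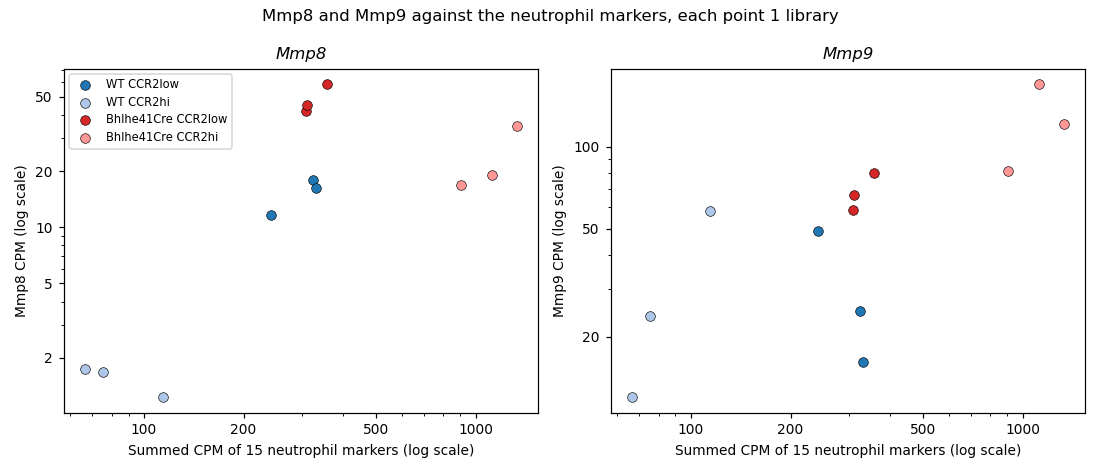
CPM of Mmp8 and Mmp9 against the summed CPM of 15 neutrophil markers (both axes on log scales), with 1 point for each library. The Bhlhe41Cre CCR2hi libraries lie farthest right, at 905 to 1330 CPM of markers, and the highest Mmp8 values belong to Bhlhe41Cre CCR2low.

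Among the gelatinases, Mmp2 (8:92827291-92853420), which cuts denatured collagen and basement membrane, was at 177, 156 and 111 CPM in WT CCR2low and at 1331, 1563 and 1815 CPM in WT CCR2hi. In Bhlhe41Cre its levels were 24.8, 52.2 and 25.2 CPM in CCR2low and 494, 358 and 339 CPM in CCR2hi. The 4 groups did not overlap, and every CCR2hi library was above every CCR2low library. Mmp2 was 10.6-fold lower in CCR2low than in CCR2hi in WT (-3.41 ± 0.299, adjusted p = 5.85e-07) and 11.6-fold lower in Bhlhe41Cre (-3.54 ± 0.303, adjusted p = 6.37e-07). Between genotypes it was lower in Bhlhe41Cre by -2.12 ± 0.286 within CCR2low (adjusted p = 0.00015) and by -1.98 ± 0.282 within CCR2hi (adjusted p = 0.000215). The gate difference itself was not called as different between genotypes (-0.13 ± 0.387, adjusted p = 0.845).

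The level of Mmp2 followed the fibroblast markers across the gates but not across the genotypes. As a percentage of the mean CPM of the 16 markers, Mmp2 stood at 30.5, 28.8 and 34.2% in WT CCR2low and at 28.2, 33.3 and 34.7% in WT CCR2hi. In Bhlhe41Cre it stood at 16, 15.5 and 16.3% in CCR2low and at 16.8, 14.2 and 14.8% in CCR2hi. The gates overlapped within each genotype, and every Bhlhe41Cre library was below every WT library. This mean is mostly collagen, since Col3a1 held 30.4 to 39.8% of the summed marker CPM, Col1a1 17.9 to 27.9% and Col1a2 18.6 to 23.1%. When the libraries were scaled to the geometric mean of the same markers, a setting chosen after seeing the data, the gate change of Mmp2 was -0.12 in WT (adjusted p = 0.74) and -0.07 in Bhlhe41Cre (adjusted p = 0.862). On that scale the genotype change was -1.17 within CCR2low (adjusted p = 0.00341) and -1.22 within CCR2hi (adjusted p = 0.00309), with the median gene moved by 1.06 and 0.78. Within CCR2low 10 of the 16 markers were lower in Bhlhe41Cre and within CCR2hi 7 were, with 0 higher in either gate. Of all genes tested, 26.7% and 15.9% were lower in these comparisons. Genes with profiles most like that of Mmp2 were Itga11, Mfap4 and Prelp, with root mean square differences of 0.18, 0.19 and 0.20 between centred log2 CPM over the 12 libraries.

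**Figure D3:**
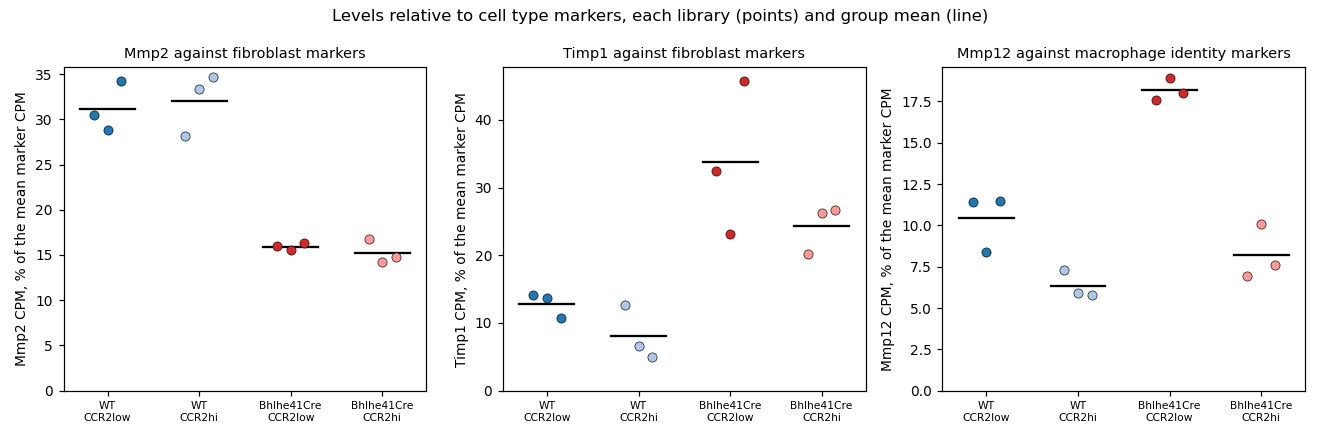
CPM of Mmp2 and Timp1 as a percentage of the mean CPM of 16 fibroblast markers, and of Mmp12 as a percentage of the mean CPM of 17 macrophage identity markers, in each library (points) with the group mean (line). Mmp2 lies at 28.2 to 34.7% in WT and at 14.2 to 16.8% in Bhlhe41Cre in both gates.

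Mmp9 (2:164940780-164955850), the other gelatinase, had the largest SE of the members in all 5 comparisons. It stood at 49.0, 24.9 and 16.2 CPM in WT CCR2low and at 57.9, 23.8 and 12 CPM in WT CCR2hi. The Bhlhe41Cre values were 58.6, 66.3 and 80.0 CPM in CCR2low and 121, 81.4 and 170.0 CPM in CCR2hi. The WT gates overlapped, replicate 1 was the highest of each WT gate, and every Bhlhe41Cre library was above every WT library. Mmp9 did not pass between the WT gates (-0.06 ± 0.505, adjusted p = 0.929). Between the Bhlhe41Cre gates its change was -0.86 ± 0.498 (adjusted p = 0.167), although these gates did not overlap. With the replicate number as a block it was called (-0.81, adjusted p = 0.00373). Within CCR2hi Mmp9 was higher in Bhlhe41Cre (1.99 ± 0.515, adjusted p = 0.0116). That call ended with no filter on low counts (1.94, adjusted p = 0.0681), against a 1.5-fold minimum (adjusted p = 0.0522) and without replicate 3 of both Bhlhe41Cre gates (1.69, adjusted p = 0.0659). It also ended when libraries were scaled to the macrophage identity markers (0.49, adjusted p = 0.466). On the latter scale Mmp9 was called lower in CCR2low in WT (-3.67, adjusted p = 8.75e-05) and in Bhlhe41Cre (-2.86, adjusted p = 0.000765), as were 95.2% and 90.7% of all genes tested. Within CCR2low the change was 1.19 ± 0.507 (adjusted p = 0.0777). The replicate block gave a call (1.34, adjusted p = 0.0322), but between genotypes this block joins libraries of different mice by number only. The change was called without WT CCR2low replicate 1 (1.73, adjusted p = 0.0233). It was also called without WT CCR2hi replicate 1 (adjusted p = 0.0119) or 3 (0.0331), or without Bhlhe41Cre CCR2hi replicate 2 (0.0407) or 3 (0.0493). The interaction was -0.80 ± 0.708 (adjusted p = 0.475), and -0.88 with the block (adjusted p = 0.0482). The neutrophil marker sums given for Mmp8 apply here as well. Their part was not tested.

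Mmp3 (9:7445822-7455975), stromelysin-1, cuts proteoglycans and fibronectin and activates other proMMPs. It was at 7.08, 6.04 and 3.31 CPM in WT CCR2low and at 31.0, 32.0 and 27.8 CPM in WT CCR2hi. Those of Bhlhe41Cre were 5.19, 7.69 and 4.06 CPM in CCR2low and 90.5, 48.8 and 66.4 CPM in CCR2hi. Every CCR2hi library was above every CCR2low library, and the CCR2low libraries of the genotypes overlapped. Mmp3 was lower in CCR2low by -2.47 ± 0.296 in WT (adjusted p = 9.03e-06) and by -3.60 ± 0.306 in Bhlhe41Cre (adjusted p = 6.08e-07). Within CCR2hi it was 2.27-fold higher in Bhlhe41Cre (1.18 ± 0.272, adjusted p = 0.00528), a call that ended against a 1.5-fold minimum (adjusted p = 0.064). Within CCR2low the change was 0.05 ± 0.303 (adjusted p = 0.912). The interaction was -1.13 ± 0.406 (adjusted p = 0.0841), called without WT CCR2low replicate 3 (-1.40, adjusted p = 0.0276) or Bhlhe41Cre CCR2low replicate 2 (-1.42, adjusted p = 0.047). In Bhlhe41Cre CCR2hi Mmp3 was higher and Mmp2 lower than in WT CCR2hi. Scaled to the fibroblast markers, the WT gate change turned to 0.80 (adjusted p = 0.0339) and the Bhlhe41Cre gate change became -0.08 (adjusted p = 0.833), where the median gene moved by 3.33 and 3.62. The genotype changes on that scale were 1.07 within CCR2low (adjusted p = 0.012) and 1.95 within CCR2hi (adjusted p = 3.72e-06), where the median gene moved by 1.06 and 0.78. Scaled to the macrophage identity genes, the genotype change within CCR2hi became 0.02 (adjusted p = 0.973).

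Mmp12 (9:7344381-7369499), the macrophage elastase, had the largest rise from CCR2hi to CCR2low among the members in WT. It was at 266, 199.8 and 242 CPM in WT CCR2low and at 10.5, 16.6 and 19.6 CPM in WT CCR2hi. In Bhlhe41Cre it was at 364, 359.7 and 421 CPM in CCR2low and at 32.6, 51.5 and 46.3 CPM in CCR2hi. The 4 groups did not overlap. CCR2low exceeded CCR2hi 15.1-fold in WT (3.92 ± 0.239, adjusted p = 5.74e-08) and 8.77-fold in Bhlhe41Cre (3.13 ± 0.229, adjusted p = 2.32e-07). All 17 macrophage identity markers were also higher in CCR2low in both genotypes, beside 29.8% (WT) and 24.9% (Bhlhe41Cre) of all genes. Scaled to these markers, the gate change of Mmp12 was 0.75 in WT (adjusted p = 0.0113) and 1.13 in Bhlhe41Cre (adjusted p = 0.000609), a scale on which 0.728% and 0.454% of all genes tested were called higher and 95.2% and 90.7% lower. It was thus the only member called higher in CCR2low in both genotypes on that scale.

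Between genotypes Mmp12 was higher in Bhlhe41Cre by 1.48 ± 0.221 within CCR2hi (adjusted p = 0.000315) and by 0.69 ± 0.211 within CCR2low (adjusted p = 0.0177). The CCR2low call ended against a 1.5-fold minimum (adjusted p = 0.37), without WT CCR2low replicate 2 (0.59, adjusted p = 0.0796) and without replicate 3 of both Bhlhe41Cre gates (0.61, adjusted p = 0.0622). Of the macrophage identity markers 11 of 17 were higher in Bhlhe41Cre within CCR2hi and 1 within CCR2low, beside 16.2% and 16.4% of all genes. Scaled to them, the genotype change was 0.41 within CCR2hi (adjusted p = 0.161) and 0.79 within CCR2low (adjusted p = 0.0479). The closest profiles to that of Mmp12 belonged to Cd84, Cd68 and Cd180, with root mean square differences of 0.21, 0.26 and 0.29 on the log2 scale over 12 libraries. Cd68 is itself one of the macrophage identity markers. Mmp12 shares exon positions on the other strand with Mmp1b, which had 0 to 2 counts per library.

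Mmp19 (10:128790910-128800824), which cuts basement membrane proteins, was at 127, 162 and 189 CPM in WT CCR2low and at 86.3, 64.8 and 73.8 CPM in WT CCR2hi. In Bhlhe41Cre it reached 679, 568 and 399 CPM in CCR2low and 278, 248 and 207 CPM in CCR2hi. Every Bhlhe41Cre library stood above every WT library. The genotype change was 1.78 ± 0.208 within CCR2low (adjusted p = 6.78e-05) and 1.70 ± 0.208 within CCR2hi (adjusted p = 7.36e-05), and the interaction was 0.08 ± 0.286 (adjusted p = 0.878). Between the gates Mmp19 was higher in CCR2low by 1.09 ± 0.205 in WT (adjusted p = 0.000465) and by 1.17 ± 0.204 in Bhlhe41Cre (adjusted p = 0.000285). The WT call was lost on log2(TPM + 1) values (0.64, adjusted p = 0.0572). Within CCR2hi the genotype change became 0.49 (adjusted p = 0.249) on the macrophage identity scale, while within CCR2low it was 1.90 (adjusted p = 0.00593). Mmp19 shares exon positions with Tmem198b, which had 372 to 653 counts per library, and the strand protocol is not given in the sources used here, so reads of these genes may not have been told apart. Nampt, Slc38a1 and Cd86 had the profiles most like it, with root mean square differences of 0.19, 0.20 and 0.21.

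The rise of Mmp8, Mmp13 and Mmp19 in CCR2low depended on the scale. Relative to the macrophage identity genes, the WT gate changes were 0.10 for Mmp8 (adjusted p = 0.801), -2.18 for Mmp13 (adjusted p = 1.58e-06) and -2.26 for Mmp19 (adjusted p = 3.68e-05). In Bhlhe41Cre they were -1.03 for Mmp8 (adjusted p = 0.00898), -0.06 for Mmp13 (adjusted p = 0.828) and -0.85 for Mmp19 (adjusted p = 0.0473). This scale moved the median gene by -3.29 in WT and by -2.01 in Bhlhe41Cre. On it the genotype changes within CCR2low were 1.77 for Mmp8 (adjusted p = 0.00403) and 2.29 for Mmp13 (adjusted p = 0.000265), with a median shift of 0.11, where 6.67% of all genes were called higher and 8.35% lower. Within CCR2hi Mmp8 was 2.90 higher in Bhlhe41Cre (adjusted p = 6.98e-05), where the median shift was -1.17 and 1.64% of all genes were called higher and 71.7% lower, and the Mmp13 change was 0.17 (adjusted p = 0.595). The Mmp8 interaction was -1.13 on that scale (adjusted p = 0.0744), on which 38.8% of all genes had a positive interaction and 0.789% a negative one. Interactions called on it were those of Mmp13 (2.12, adjusted p = 0.00698), Mmp14 (1.77, adjusted p = 0.0153) and Timp2 (1.52, adjusted p = 0.0227).

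Mmp14 (14:54431612-54445364), the membrane-bound activator of proMMP2, had gate changes of less than 2-fold. It was at 402, 362 and 275 CPM in WT CCR2low and at 711, 612 and 684 CPM in WT CCR2hi. The Bhlhe41Cre libraries had 377, 339 and 379 CPM in CCR2low and 543, 534 and 448 CPM in CCR2hi. Every CCR2hi library was above every CCR2low library, and the CCR2low libraries of the genotypes overlapped. Mmp14 was lower in CCR2low by -0.95 ± 0.149 in WT (adjusted p = 0.000101) and by -0.48 ± 0.148 in Bhlhe41Cre (adjusted p = 0.0148). The latter ended with no filter on low counts (-0.32, adjusted p = 0.103), against a 1.5-fold minimum (adjusted p = 0.816) and without Bhlhe41Cre CCR2low replicate 2 (-0.42, adjusted p = 0.0567). Within CCR2low the genotype change was 0.07 ± 0.148 (adjusted p = 0.709). Within CCR2hi it was -0.40 ± 0.148 (adjusted p = 0.0558), and this value passed the threshold under several alternatives. It was called with DESeq2 (-0.43, adjusted p = 0.0132), DESeq2 size factors (-0.43, adjusted p = 0.0334), limma-voom (-0.40, adjusted p = 0.0457) and log2(TPM + 1) values (-0.56, adjusted p = 0.0052). It was called with no filter (-0.45, adjusted p = 0.0294) and in a fit of these groups alone (-0.39, adjusted p = 0.0429). Scaled to the macrophage identity markers it was -1.58 (adjusted p = 0.00097), where 71.7% of all genes were called lower. It was also called without WT CCR2low replicate 3 (-0.40, adjusted p = 0.031) and without Bhlhe41Cre CCR2low replicate 3 (-0.42, adjusted p = 0.0332). Its interaction of 0.47 ± 0.209 (adjusted p = 0.152) was called with DESeq2 (0.56, adjusted p = 0.0411) and with no filter (0.67, adjusted p = 0.0424). On the macrophage identity scale this interaction was 1.77 (adjusted p = 0.0153), where 38.8% of all genes had a positive one. Scaled to the fibroblast markers, the gate changes of Mmp14 turned to 2.35 in WT and 3.19 in Bhlhe41Cre, where the median gene shifted by 3.33 and 3.62. Its genotype change on that scale was 1.22 within CCR2low (adjusted p = 0.00292) and 0.38 within CCR2hi (adjusted p = 0.385), where the median gene shifted by 1.06 and 0.78. P4ha1, Parp3 and Sh3gl1 had the closest profiles, with root mean square differences of 0.13, 0.15 and 0.16.

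Of the inhibitors, Timp1 (X:20870166-20874735) binds most secreted MMPs and is strongly induced in injured tissue. It was at 82.1, 74.0 and 34.8 CPM in WT CCR2low and at 597, 312 and 263 CPM in WT CCR2hi. Bhlhe41Cre cells had 50.2, 77.8 and 70.4 CPM in CCR2low and 594, 658 and 612 CPM in CCR2hi. WT CCR2hi replicate 1 was as high as the Bhlhe41Cre CCR2hi libraries, and the genotypes overlapped in both gates. Timp1 was lower in CCR2low by -2.62 ± 0.340 in WT (adjusted p = 1.84e-05) and by -3.23 ± 0.348 in Bhlhe41Cre (adjusted p = 4.28e-06). Between genotypes it did not pass within CCR2low (0.06 ± 0.322, adjusted p = 0.903) or within CCR2hi (0.67 ± 0.320, adjusted p = 0.126). Without WT CCR2hi replicate 1, the change within CCR2hi was 1.10 (adjusted p = 0.011). With all libraries on the macrophage identity scale it turned to -0.70 (adjusted p = 0.182), where the median gene shifted by -1.17. As a percentage of the mean fibroblast marker, Timp1 stood at 10.7 to 14.1% in CCR2low and 5.04 to 12.6% in CCR2hi in WT, against 23.1 to 45.7% and 20.2 to 26.7% in Bhlhe41Cre. Every Bhlhe41Cre library was above every WT library in this measure. Scaled to those markers, Timp1 was higher in Bhlhe41Cre by 1.17 within CCR2low (adjusted p = 0.0034) and by 1.48 within CCR2hi (adjusted p = 0.000334). This scale moved the median gene by 1.06 and 0.78 in these comparisons. The gate changes of Timp1 on it were 0.66 in WT (adjusted p = 0.0642) and 0.35 in Bhlhe41Cre (adjusted p = 0.344), where the median gene moved by 3.33 and 3.62.

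Timp2 (11:118301069-118355740), on the minus strand, encodes the inhibitor that also takes part in proMMP2 activation. It was at 1277, 1203 and 1196 CPM in WT CCR2low and at 1112, 1045 and 1129 CPM in WT CCR2hi. In Bhlhe41Cre the levels were 607, 622 and 679.9 CPM in CCR2low and 532, 486 and 415 CPM in CCR2hi. Every Bhlhe41Cre library was below every WT library. Timp2 was 1.93-fold lower in Bhlhe41Cre within CCR2low (-0.95 ± 0.125, adjusted p = 0.00013) and 2.29-fold lower within CCR2hi (-1.2 ± 0.125, adjusted p = 2.35e-05). The CCR2low value was -0.84 on the macrophage identity scale, where it was not called (adjusted p = 0.0861). Between the gates the change was 0.16 ± 0.123 in WT (adjusted p = 0.272) and 0.41 ± 0.124 in Bhlhe41Cre (adjusted p = 0.0123). The latter ended with library size as the only scaling (0.20, adjusted p = 0.129), against a 1.5-fold minimum (adjusted p = 1), without Bhlhe41Cre CCR2hi replicate 3 (0.31, adjusted p = 0.0666) and without replicate 3 of both gates (0.27, adjusted p = 0.112). On the macrophage identity scale it turned to -1.63 (adjusted p = 0.000187). Timp2 and Mmp2 were the members lower in Bhlhe41Cre in both gates.

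**Figure D4:**
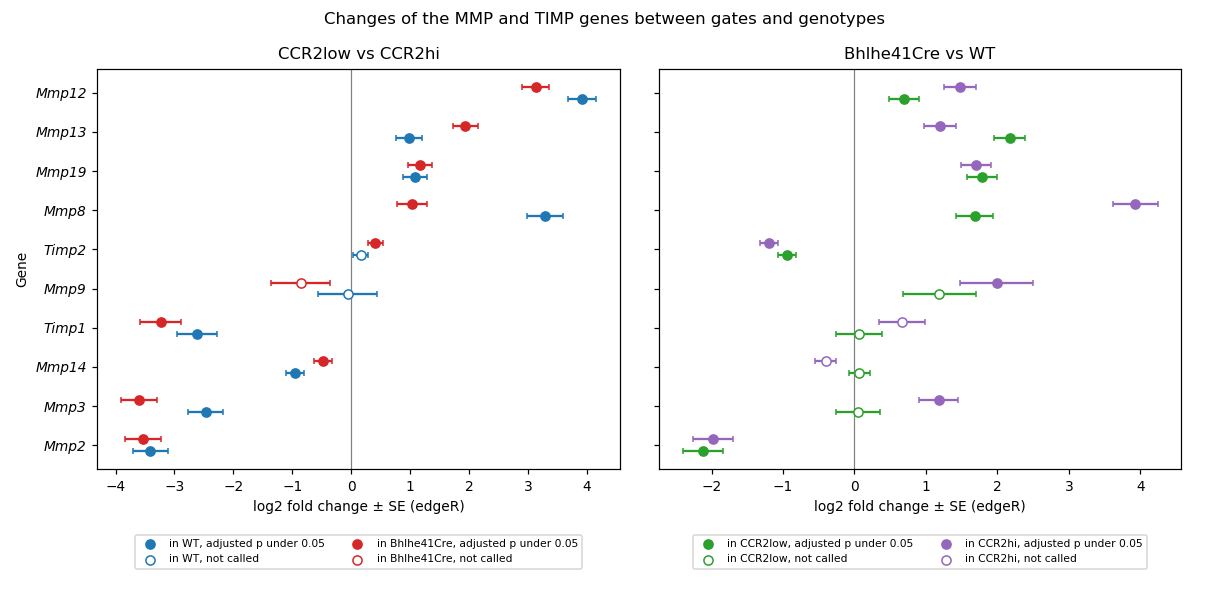
Log2 fold change ± SE (computed from edgeR's F statistic) of each gene, for CCR2low against CCR2hi in each genotype (left) and Bhlhe41Cre against WT in each gate (right), with filled points at an adjusted p under 0.05. Mmp8, Mmp12, Mmp13 and Mmp19 are filled on the positive side in all 4 comparisons on this TMM scale, and Mmp2 on the negative side in all 4. Relative to macrophage identity genes, the gate change turns negative for Mmp19 in both genotypes, for Mmp13 in WT and for Mmp8 in Bhlhe41Cre. On that scale the gate changes of Mmp8 in WT (0.10) and Mmp13 in Bhlhe41Cre (-0.06) are not called. Neither are the genotype changes of Mmp12, Mmp13 and Mmp19 within CCR2hi.

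Pairs of members were also ranked by how alike their profiles were. Over the 12 libraries the closest pair was Mmp3 and Timp1, with a root mean square difference of 0.39 between centred log2 CPM. Mmp13 and Mmp19 followed at 0.42. Mmp14 and Timp2 came next at 0.69, although their changes between the Bhlhe41Cre gates had opposite signs (-0.48 and 0.41), and Mmp2 and Mmp12 were farthest apart at 3.88. The chromosome 9 neighbours Mmp12 and Mmp3, whose starts carry the motif printed above, lay on opposite sides between the gates.

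In TPM, which allows levels of different genes to be compared, the leading member differed between groups. Timp2 led in WT CCR2low at 680.3 ± 25.5 TPM (SD, n = 3), followed by Mmp12 at 230.2 ± 29.7 and Mmp14 at 192 ± 23.1, whose ranges overlapped. In WT CCR2hi, Timp1 at 969 ± 472 TPM and Mmp2 at 939 ± 125 overlapped at the top, above Timp2 at 561 ± 17.8 and Mmp14 at 478 ± 41.4. Timp2 again led in Bhlhe41Cre CCR2low at 435 ± 23.4 TPM, then Mmp12 at 344 ± 7.77, and then Mmp19 at 230.1 ± 76.2 and Mmp14 at 199.7 ± 17.7, which overlapped. Timp1 led in Bhlhe41Cre CCR2hi at 1422 ± 45.8 TPM, above Mmp14 at 325 ± 41.5, Timp2 at 296 ± 37.3 and Mmp2 at 212 ± 53.2, each of which overlapped the next. The order of the 4 groups was the same by CPM and by TPM for all 10 members. Mmp8 in WT CCR2hi, at 1.17 ± 0.188 TPM, was the lowest level of any member in any group.

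The makeup of the transcripts of the 8 MMP members differed accordingly. Other family genes are left out of these shares, such as Mmp23, at 331.6 ± 20.2 TPM in WT CCR2hi and 141.1 ± 17.1 TPM in Bhlhe41Cre CCR2hi. Mmp2 made up 61.1 ± 5.05% of the summed TPM of the 8 MMP genes in WT CCR2hi, 24.5 ± 2.4% in Bhlhe41Cre CCR2hi, 11.6 ± 1.82% in WT CCR2low and 1.8 ± 0.858% in the CCR2low gate of Bhlhe41Cre. Mmp12 made up 38.9 ± 4.50% (WT) and 39.8 ± 4.37% (Bhlhe41Cre) in CCR2low, against 1.2 ± 0.287% and 5.50 ± 1.68% in the CCR2hi groups. Mmp19 accounted for 25.9 ± 6.02% in Bhlhe41Cre CCR2low and 11.8 ± 3.22% in WT CCR2low. The share of Mmp14 stayed between 21.5 and 41.9% in all 12 libraries. Timp1 held 82.8 ± 1.5% (Bhlhe41Cre) and 61.3 ± 9.80% (WT) of the summed TPM of the 2 inhibitors in CCR2hi, against 22.7 ± 3.14% and 15 ± 4.99% in CCR2low.

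The summed TPM of the 8 MMPs divided by that of the 2 TIMPs was 0.737, 0.720 and 0.758 in WT CCR2low, against 0.703, 1.13 and 1.39 in its CCR2hi gate. It was 1.81, 1.47 and 1.38 in Bhlhe41Cre CCR2low and 0.575, 0.444 and 0.472 in Bhlhe41Cre CCR2hi. The WT gates overlapped, whereas every Bhlhe41Cre CCR2low library was above every WT CCR2low library and every Bhlhe41Cre CCR2hi library below every WT CCR2hi library. With 3 libraries a group an exact permutation test cannot go below p = 0.1, so it is given as a description. The ratio leaves out other family genes, such as Timp3, at 350.7 ± 28.5 TPM in WT CCR2hi and 157.8 ± 42.1 TPM in Bhlhe41Cre CCR2hi. It is a ratio of transcripts and no measure of enzyme activity.

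**Figure D5:**
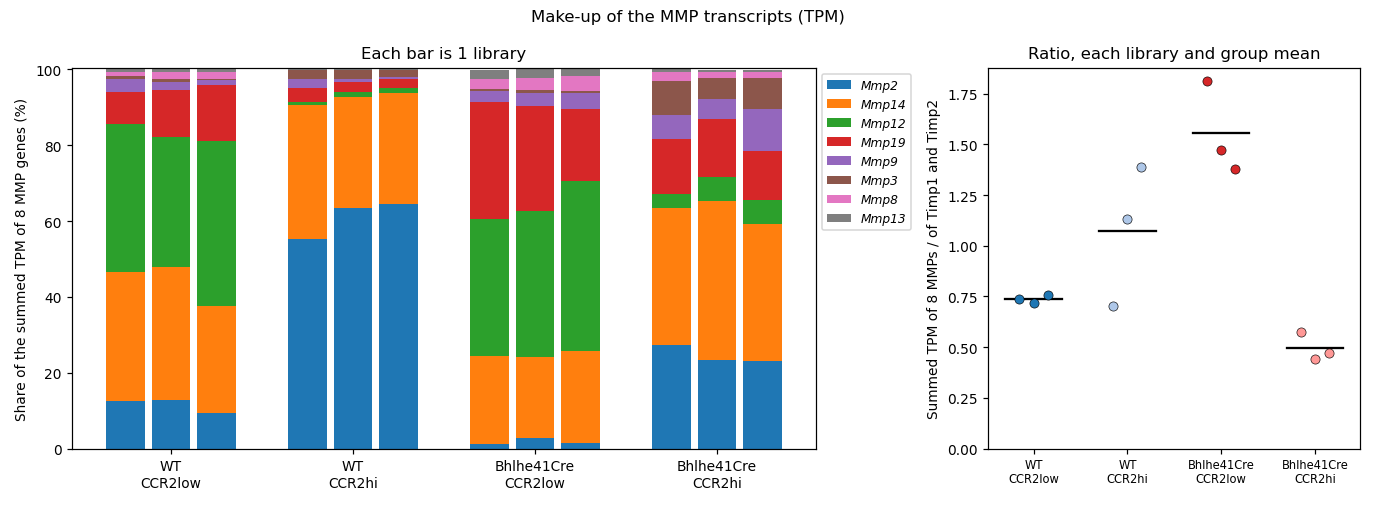
Share (%) of each MMP gene in the summed TPM of the 8 MMP genes, 1 bar for each library, and the ratio of the summed TPM of the MMPs to that of Timp1 and Timp2 in each library (points) with the group mean (line). The ratio lies at 1.38 to 1.81 in Bhlhe41Cre CCR2low and at 0.444 to 0.575 in Bhlhe41Cre CCR2hi.

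The rest of the family was mostly lower in CCR2low. Of 17 further Mmp and Timp genes 11 were tested, of which 2 were higher and 7 lower in CCR2low in WT, and 2 higher and 9 lower in Bhlhe41Cre. Between genotypes 1 was higher and 6 lower in Bhlhe41Cre within CCR2low, and 2 were higher and 4 lower within CCR2hi. Of all genes tested, 29.8% were higher and 30.0% lower between the WT gates and 24.9% and 29.1% between the Bhlhe41Cre gates. Between genotypes 16.4% of all genes were higher and 26.7% lower within CCR2low, and 16.2% and 15.9% within CCR2hi. The median changes of these 11 genes were -2.25, -2.75, -1.31 and -0.67 in these 4 comparisons, against 0.01, -0.01, -0.18 and -0.03 over all genes. Mmp27, the neighbour of Mmp8 in the chromosome 9 cluster, was at 11.6 ± 1.90 CPM in CCR2low against 0.437 ± 0.245 CPM in CCR2hi in WT, and at 20.5 ± 0.933 against 2.24 ± 0.573 CPM in Bhlhe41Cre. Its gate change was 4.70 ± 0.321 in WT (adjusted p = 1.15e-07) and 3.19 ± 0.263 in Bhlhe41Cre (adjusted p = 4.98e-07), with an interaction of -1.51 ± 0.421 (adjusted p = 0.0341). On the macrophage identity scale the gate changes of Mmp27 were 1.49 (adjusted p = 0.005) and 1.2 (adjusted p = 0.00831), and the interaction became -0.29 (adjusted p = 0.691). Mmp23 went the other way, at 24.4 ± 7.57 CPM in WT CCR2low against 193 ± 10.2 CPM in WT CCR2hi, and was lower in Bhlhe41Cre in both gates (-1.66, adjusted p = 0.000256, and -1.03, adjusted p = 0.00444). Timp3, the matrix-bound inhibitor, was also lower in Bhlhe41Cre in both gates (-1.31, adjusted p = 0.0021, and -1, adjusted p = 0.0129), but the CCR2low change of Timp3 was not called on the macrophage identity scale (-1.17, adjusted p = 0.0697).

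Genes that activate or restrain the MMPs moved in both directions. Of 24 such genes 22 were tested, of which 7 were higher and 12 lower in CCR2low in WT, and 4 higher and 13 lower in Bhlhe41Cre. Over all genes these shares were 29.8% and 30.0% in WT and 24.9% and 29.1% in Bhlhe41Cre. Reck, a membrane-anchored MMP inhibitor, was at 5.46 ± 0.497 CPM in WT CCR2low against 41.6 ± 2.65 CPM in WT CCR2hi (-2.93 ± 0.220, adjusted p = 2.05e-07). Between genotypes 7 were higher and 9 lower in Bhlhe41Cre within CCR2low, and 7 higher and 7 lower within CCR2hi, where the shares over all genes were 16.4% and 26.7% and then 16.2% and 15.9%. Plau, the urokinase that makes plasmin, was at 385 ± 52.8 CPM in Bhlhe41Cre CCR2low and 165 ± 36.3 CPM in WT CCR2low (1.22 ± 0.236, adjusted p = 0.00136). Its receptor Plaur was at 486 ± 9.49 CPM in Bhlhe41Cre CCR2hi and 94.9 ± 38.6 CPM in WT CCR2hi (2.36 ± 0.217, adjusted p = 8.62e-06). Cd44, a hyaluronan receptor that can dock MMP9 on the cell surface, was higher in Bhlhe41Cre in both gates (1.38, adjusted p = 0.000249, and 1.62, adjusted p = 9.73e-05), while Reck was lower in both (-1.23, adjusted p = 0.00139, and -1.42, adjusted p = 0.00023). Scaled to the macrophage identity markers, the CCR2hi change became 0.34 for Cd44 (adjusted p = 0.443) and 1.01 for Plaur (adjusted p = 0.037), while the CCR2low change of Reck became -1.1 (adjusted p = 0.0721). Lcn2, the lipocalin that binds MMP9 and is stored in neutrophils, was at 59.5 ± 34.3 CPM in Bhlhe41Cre CCR2hi and 4.93 ± 0.746 CPM in WT CCR2hi, with an interaction of -4.16 ± 0.733 (adjusted p = 0.00499).

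ADAM and ADAMTS proteases are a related branch of metalloproteinases. The list of 25 such genes also includes the ADAMTS-like genes Adamtsl1, Adamtsl2 and Adamtsl4, so not all of them encode active proteases. All 25 were tested, of which 4 were higher and 19 lower in CCR2low in WT, and 5 higher and 19 lower in Bhlhe41Cre, beside 29.8% and 30.0%, and 24.9% and 29.1%, of all genes. Within CCR2low 4 were higher and 11 lower in Bhlhe41Cre (16.4% and 26.7% of all genes), and within CCR2hi 1 was higher and 12 lower (16.2% and 15.9%). Adam8, a protease of myeloid cells, was at 645 ± 49.7 CPM in CCR2low against 24.4 ± 0.722 CPM in CCR2hi in WT, and at 1261 ± 112 against 201 ± 37.1 CPM in Bhlhe41Cre. Like Mmp8 it had a smaller gate change in Bhlhe41Cre than in WT, with an interaction of -2.08 ± 0.207 (adjusted p = 0.00021). On the macrophage identity scale this interaction was -0.78 (adjusted p = 0.132).

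The matrix substrates of these enzymes were lower in CCR2low for all 15 genes tested, in both genotypes, where 30.0% (WT) and 29.1% (Bhlhe41Cre) of all genes were lower. Between genotypes 1 was higher and 8 lower in Bhlhe41Cre within CCR2low, with 16.4% and 26.7% over all genes, and 0 were higher and 10 lower within CCR2hi, with 16.2% and 15.9%. Eln, the elastin that MMP12 cuts, was at 482 ± 109.6 CPM in WT CCR2low against 75.3 ± 29.3 CPM in Bhlhe41Cre CCR2low (-2.68 ± 0.304, adjusted p = 5.86e-05). In CCR2hi it was at 6181 ± 1182 CPM in WT and 744 ± 241 CPM in Bhlhe41Cre (-3.05 ± 0.307, adjusted p = 1.72e-05). Acan, the proteoglycan aggrecan, was lower in Bhlhe41Cre by -3.29 ± 0.512 within CCR2low (adjusted p = 0.000343) and by -4.23 ± 0.408 within CCR2hi (adjusted p = 1.29e-05). Of these substrates, Col1a1, Col1a2, Col3a1, Col5a1 and Dcn are also in the fibroblast list, whose sums were lower in Bhlhe41Cre CCR2hi than in WT CCR2hi.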

How the data were processed

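The submitters' processing notes name CASAVA 1.8, STAR 2.4.0j, RSEM and the mm10 build; neither an RSEM version nor an annotation is given in the sources used here. The authors deposited a table of expected counts per gene, which held 0 values that were not whole, and a table of TPM (columns summing to 1000000 to 1000001). Columns named KD were matched to the Bhlhe41Cre samples by gate and replicate number, whose groups come from their titles because their other label fields are shifted. No value column was left unmatched (0).

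Counts of 12 libraries were TMM-scaled and filtered with filterByExpr, and 1 mean per group was fitted in edgeR 4.0.16 (R 4.3.3; glmQLFit and glmQLFTest, robust, 8 residual degrees of freedom, common biological coefficient of variation 18.9%). Tests were two-sided. Alternatives used DESeq2 1.42.0, limma 3.58.1 (voom, and log2(TPM + 1)), other scalings and filters, a block, a 1.5-fold minimum and left-out libraries. The edgeR steps were tested on simulated data.

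Members and gene lists were chosen with earlier results of these data known. All 10 members are named, and genes from the lists come from the up to 4 per list and comparison with the smallest p among called genes with a mean of at least 5 CPM. The genes most like a member are the 3 with the smallest root mean square difference of centred log2(CPM + 0.5).

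Equal replicate numbers were checked by correlating residuals: 0.227, 0.119 and 0.396 between the Bhlhe41Cre gates, all above 0.1, and -0.0642, 0.0284 and -0.0476 between the WT gates. Between genotypes, where equal numbers belong to different mice, they were -0.208, -0.0642 and -0.258 in CCR2low and 0.104, -0.164 and 0.147 in CCR2hi. The pairing of the Bhlhe41Cre gates rests on these data, not on a label. Gene positions are from GENCODE M21 on GRCm38 (mm10), which held 99.66% of the identifiers.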

Additional observations from a re-analysis of the deposited data

Results flagged for a closer look

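Mmp8 had a gate difference that depended on genotype by the test of the difference itself. The CCR2low minus CCR2hi change in Bhlhe41Cre minus that in WT was -2.25 ± 0.399 (edgeR, adjusted p = 0.00467), with a change of 3.29 in WT and of 1.04 in Bhlhe41Cre. All 3 libraries of CCR2low were above all 3 of CCR2hi in each genotype. Over 21 alternatives that did not rescale to marker genes, the adjusted p ran from 1.79e-05 to 0.0431, the highest on log2(TPM + 1) values. Scaled to the 17 macrophage identity markers, the difference was -1.13 (adjusted p = 0.0744). The summed neutrophil markers were at 66.6 to 114 CPM in WT CCR2hi and at 905 to 1330 CPM in Bhlhe41Cre CCR2hi. As a percentage of the mean CPM of these markers, Mmp8 stood at 16.2 to 39.0% in WT CCR2hi and at 25.5 to 39.3% in Bhlhe41Cre CCR2hi. Within CCR2low it stood at 71.5 to 82.8% in WT and at 205.9 to 245.7% in Bhlhe41Cre. The part of neutrophil transcripts in this difference was not tested.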

How the results depend on the processing

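Of 1156 recomputed member changes, 1045 kept their direction and side of the threshold, 40 gained a call, 28 lost it and 43 changed sign, the last mostly for changes that were not called. In the order WT gates, Bhlhe41Cre gates, genotypes in CCR2low, genotypes in CCR2hi and interaction, scaling to the macrophage identity genes gave 14357, 13644, 2248, 10980.0 and 5922 called genes, in place of 8949, 8094, 6441, 4808 and 1884. A 1.5-fold minimum, which is a stricter test, gave 5509, 4928, 2486, 1329 and 478. Macrophage scaling left 4 members called between genotypes in CCR2hi. For the interaction it called 3, namely Mmp13, Mmp14 and Timp2, all positive, and no longer Mmp8. No filter and DESeq2 gave 3 each as well, but these were Mmp8, Mmp13 and Mmp14. The interaction had 2 called members with DESeq2 size factors and with the replicate block. It had 1091 called genes on log2(TPM + 1) values. With 1 library left out the interaction had 871 to 2801 called genes and 1 to 2 called members. The lowest count came without Bhlhe41Cre CCR2low replicate 1. It also fell to 1138, 953 and 927 without WT CCR2low replicate 1, WT CCR2low replicate 2 and Bhlhe41Cre CCR2hi replicate 3. The split of higher and lower calls moved too. Between the WT gates it was 4454 and 4495, against 2537 and 5384 on log2(TPM + 1) values and 3216 and 5151 without WT CCR2hi replicate 1. It was 3288 and 5432, 3284 and 5405, and 3314 and 5480 without Bhlhe41Cre CCR2hi replicate 1, 2 and 3. Without Bhlhe41Cre CCR2low replicate 3 it was 3824 and 5509. Between genotypes in CCR2low it was 2448 and 3993, against 2936 and 2666 with no filter, 2898 and 2544 in a fit of those groups alone, 3620 and 2904 without WT CCR2hi replicate 1, 3258 and 3031 without Bhlhe41Cre CCR2low replicate 3, and 3283 and 2502, 3235 and 2501, and 3320 and 2552 without Bhlhe41Cre CCR2hi replicate 1, 2 and 3. With library size as the only scaling it went from 3733 and 4361 to 2533 and 5384 between the Bhlhe41Cre gates, from 2424 and 2384 to 2994 and 1851 between genotypes in CCR2hi, and from 710 and 1174 to 447 and 1844 for the interaction, for which DESeq2 size factors gave 831 and 908. The cause was not tested.

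Macrophage scaling changed the sign of the WT gate change of Mmp13 (-2.18), Mmp19 (-2.26) and Timp2 (-3.15), and of the Bhlhe41Cre gate change of Mmp8 (-1.03), Mmp13 (-0.06), Mmp19 (-0.85) and Timp2 (-1.63). It did the same to Timp1 between genotypes in CCR2hi (-0.70) and to the interactions of Mmp2 (1.12), Mmp3 (0.18), Mmp9 (0.81), Mmp12 (0.38) and Timp1 (0.89). This scale takes out the difference in macrophage marker level by construction. Fibroblast marker scaling, chosen after seeing the data, did so for Mmp3 (0.80), Mmp14 (2.35) and Timp1 (0.66) in WT, for Mmp14 (3.19) and Timp1 (0.35) in Bhlhe41Cre, and for Mmp14 between genotypes in CCR2hi (0.38). Other settings turned values near 0, namely Mmp9 between the WT gates with voom (0.08), and the interactions of Mmp2 with no filter (0.06) or TPM (0.03) and of Mmp19 with library size alone (-0.02). With 1 library left out, the WT gate change ran from -0.59 to 0.53 for Mmp9 and from -0.04 to 0.19 for Timp2. In CCR2low the genotype change ran from -0.24 to 0.40 for Mmp3, from -0.07 to 0.27 for Mmp14 and from -0.24 to 0.28 for Timp1. The interaction ran from -0.58 to 0.27 for Mmp2 and from -0.10 to 0.44 for Mmp19. With the replicate number as a block, the WT gate change of Mmp9 was 0.07, and among the members' pairwise changes the block altered the call of Mmp9 only, between the Bhlhe41Cre gates and between genotypes in CCR2low. Between genotypes the block joins different mice by number only.

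Depth limited few of these values, since the lowest member level was that of Mmp8 in WT CCR2hi, at 1.23 to 1.73 CPM. Antisense and overlapping transcripts, unknown strand handling, unequal macrophage and fibroblast marker levels between gates, Xist above 3 counts only in Bhlhe41Cre and 3 libraries a group limit what the comparisons can show.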
